A study of Mus musculus with 12 samples.

Results

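Processed pseudogenes that gave counts were examined in RNA-seq libraries labelled as oligodendrocyte precursor cells (OPCs) from mouse cortex. The members were all rows of the OPC gene table with the biotype processed_pseudogene whose raw count, averaged over the 6 libraries, was at least 50. They were thus chosen by their measured level over both groups together, and not by the difference between the groups. This gave 187 members among 2853 processed pseudogenes and 30165 genes of the table. The control group (ctl, genotype labelled WT) and the knockout group (dKO) had 3 libraries each, and each library was made from the pooled cells of 2 mice. In the dKO mice, tamoxifen on postnatal days 7 and 8 induced the recombinase NG2-CreERT2, which acts in NG2-expressing cells, on floxed alleles of Cacna1c and Cacna1d. These genes encode the pore-forming subunits of the L-type calcium channels Cav1.2 and Cav1.3. Cells were sorted with magnetic beads for CD140, NG2 and O4. Whether ctl mice carried the Cre or a floxed allele, and the age at isolation, were not given in the sources used here.

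A processed pseudogene is a copy of a messenger RNA that was reverse-transcribed and inserted back into the genome by the LINE-1 machinery. Such a copy lacks the introns and usually the promoter of its parent gene, and genes with abundant messages in the germ line, such as those of ribosomal proteins, have left many copies. Because copy and parent are nearly identical, a sequenced fragment can often be placed on either one, so the count of a young copy is tied to how reads of its parent were assigned.

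The likeness is shown here for pseudogenes on which the results turn, because bases that differ separate a read of the copy from a read of the parent. Each stretch is 90 bases long, 5′ to 3′ on the strand of the gene, from GRCm38 and the GENCODE M21 transcripts. Every base that differs between copy and parent is in capitals. The parent stretches lie inside the coding sequence and were chosen as the gap-free ones with the most differences. They are therefore not typical of a pair, and differences outside them are not shown. Over its whole aligned length Hdac1-ps is 99.4% identical to Hdac1. Hdac1-ps at chr17:78491974-78492063 (+) differed at 6 positions of this stretch from Hdac1, which encodes a histone deacetylase. Nudc-ps1 at chr8:29286892-29286981 (−) differed at 1 position from Nudc, a nuclear distribution gene. Gm3375 at chr7:3181469-3181558 (+) differed at 3 positions from Psmb5, which encodes a catalytic subunit of the proteasome. Rpl34-ps1 at chr6:71124652-71124741 (+) differed at 1 position from Rpl34, a gene of the large ribosomal subunit, and here the parent stretch spans 1 exon junction that the copy lacks as an intron. Gm15459 at chr5:5783442-5783531 (−) differed at 1 position from Hspa8, which encodes the constitutive heat shock protein HSC70.
Hdac1-ps: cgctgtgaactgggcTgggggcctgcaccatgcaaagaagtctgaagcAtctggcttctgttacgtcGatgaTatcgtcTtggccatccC
Hdac1: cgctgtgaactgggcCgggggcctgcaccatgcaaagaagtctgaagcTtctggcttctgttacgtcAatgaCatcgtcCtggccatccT
Nudc-ps1: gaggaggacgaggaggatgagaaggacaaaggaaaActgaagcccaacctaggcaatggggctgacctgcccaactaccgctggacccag
Nudc: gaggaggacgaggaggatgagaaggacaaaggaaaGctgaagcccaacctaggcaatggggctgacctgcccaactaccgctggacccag
Gm3375: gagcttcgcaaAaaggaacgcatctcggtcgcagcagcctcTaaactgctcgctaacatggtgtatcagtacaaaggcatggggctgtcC
Psmb5: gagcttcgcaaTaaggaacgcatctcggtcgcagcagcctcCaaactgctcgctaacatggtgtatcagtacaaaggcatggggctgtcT
Rpl34-ps1: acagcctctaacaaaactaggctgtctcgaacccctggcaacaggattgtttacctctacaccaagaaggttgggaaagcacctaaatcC
Rpl34: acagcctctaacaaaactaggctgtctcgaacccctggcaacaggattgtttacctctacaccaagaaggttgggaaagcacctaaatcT
Gm15459: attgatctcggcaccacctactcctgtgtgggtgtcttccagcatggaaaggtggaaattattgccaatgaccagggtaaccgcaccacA
Hspa8: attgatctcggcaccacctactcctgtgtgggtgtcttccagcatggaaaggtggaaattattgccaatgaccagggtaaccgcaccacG

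Total counts ranged from 14935963 to 19812274 per library. Cacna1c was at 426, 345 and 420 counts in ctl and at 258, 371 and 292 in dKO, and after normalization its groups did not overlap (log2 fold change of dKO against ctl −0.44 ± 0.15 SE). Cacna1d was at 287, 160 and 244 counts in ctl and at 95, 169 and 217 in dKO, with overlapping groups (−0.55 ± 0.31). The OPC genes Pdgfra and Cspg4 were found in every library (FPKM of 4.29 to 18.4 and of 2.66 to 4.45). The OPC list summed to 1546 to 2707 CPM and the list of mature oligodendrocyte genes to 52420 to 81920 CPM. The levels given here are thus those of a sorted fraction and not of OPCs alone. The microglia list summed to 245 to 303 CPM in ctl and to 314 to 1068 CPM in dKO, with 10 of 10 genes at an unadjusted p under 0.05, and the astrocyte list to 1145 to 1950 and 1732 to 5209 CPM, with 6 of 8 and overlapping sums. The neuron list was low and without overlap (41.0 to 52.0 and 53.3 to 69.3 CPM, 1 of 8 genes). The oligodendrocyte list was centred on −0.42 on the log2 scale. Of its 10 genes 8 were below 0, 2 of them at an unadjusted p under 0.05, while the endothelial sums overlapped. No listed marker was at 0 in any library. dKO replicate 2 stood apart: Xist was at 13590 normalized counts against 2.93 to 20.2 in the other libraries, the Y-linked genes Ddx3y, Eif2s3y, Kdm5d and Uty were at 0 in it alone, and its astrocyte list was the highest. Read by these sex-linked genes, its pool was female and those of the other libraries were male, so sex was not balanced between the groups. The fold changes of members described as highest in dKO replicate 2 are also given without it. The part of these differences in the results on pseudogenes was not tested.

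All 187 members matched an entry of GENCODE M21, and each was compared with all protein-coding transcripts. The median identity to the closest coding gene was 99.4% (quartiles 98.8 and 99.8%), and 125 members were at 99% or above. For 184 members the matched stretch of the parent crossed at least 1 exon junction, with a median of 4, which is the mark of a copied message. When every window of 150 bases, the length of 1 read, was compared, 30 members were identical to the closest gene in all windows and 22 in none. Only 12 members were under 95% identity, down to 69.9%. The closest genes numbered 157: Hnrnpa3, Hmgb1, Rpl23a and Rps2 each had 4 members and Rpl21 and Rpsa each had 3. By position, 124 members lay between genes, 36 in an intron of a gene on the opposite strand, 21 in an intron on the same strand and 6 over an exon of another gene. M21 lists 4 members as protein-coding genes (Gm6793, Gm10073, Rps12-ps3 and Csnk2a1-ps3). The libraries did not keep the strand, so reads of a host gene's intron cannot be told apart from reads of a copy within it.

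The members' median raw count was 128 (quartiles 70.0 and 253), and 20 of them reached 500. Their median FPKM, the deposited level per length and library depth, was 11.2 and their range 1.23 to 146. At the limit, the members just inside were Gm5776 (mean raw count 50.2), H3f3a-ps1 (50.3) and Gm19178 (50.5), and Rpl9-ps7 (49.5), Gm4735 (49.5) and Gm8566 (49.7) were just outside. On ctl libraries alone 13 members averaged under 50, and on dKO libraries alone 6 did. They were members only through the other group, and the 168 at 50 or more in each group held 27 of the 29 higher and 2 of the 3 lower members counted at an unadjusted p under 0.05 in the comparison of the groups.

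Of the 10 members with the highest mean count, 6 were copies of ribosomal protein genes. Rpl17-ps10, a copy of the large-subunit gene Rpl17, had the highest mean, 1440 raw counts. Its normalized counts were 1340, 968 and 1430 in ctl and 1802, 1641 and 1361 in dKO. dKO replicates 1 and 2 were above every ctl library and dKO replicate 3 lay within the ctl range (0.36 ± 0.17, edgeR adjusted p = 0.456). Per length, Rpl17-ps10 was at 128 ± 24.4 FPKM in ctl and 164 ± 23.9 in dKO (SD, n = 3), while Rpl17 itself averaged 22.0 FPKM. These levels depend on how reads that fit both genes were assigned, which is not given. Gm9794, a copy of Rpl23, was at 881, 803 and 917 normalized counts in ctl and at 1226, 1201 and 950 in dKO. Its groups did not overlap, by a small margin at dKO replicate 3 (0.38 ± 0.13, edgeR adjusted p = 0.343). Vcp-rs, a copy of the gene of the ATPase VCP, was at 822 to 950 in ctl and 984 to 1056 in dKO, also without overlap (0.19 ± 0.10). Gm7964, a copy of the RNA-binding protein gene Hnrnpk, was at 685 to 815 and at 731 to 1127, and these ranges overlapped. Rpl21-ps15, Rpl14-ps1, Rpl17-ps3 and Rps10-ps2 had log2 fold changes of 0.44 ± 0.17, 0.36 ± 0.17, 0.40 ± 0.15 and 0.50 ± 0.21. Of these 4, Rpl17-ps3 alone had groups that did not overlap. The other members of the 10, Gm15459 and Gm10123, were highest in dKO replicate 2 and are described with the uneven members. Without that library Gm10123 ranked 5 and Gm15459 ranked 21 by mean raw count.

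Counted together, the members took a larger share of each dKO library. Their part of all counts was 0.200, 0.203 and 0.210% in ctl and 0.250, 0.266 and 0.221% in dKO. The dKO libraries were all above the ctl libraries, dKO replicate 3 by the least. Mitochondrial genes held 3.65 to 4.77% of the counts in ctl and 4.65 to 7.08% in dKO, highest in dKO replicate 2 and within the ctl range in dKO replicate 3, and their part in the share of the members was not tested. The difference in the members' share was 0.0413 percentage points (exact two-sided permutation test, p = 0.1, the smallest that 3 against 3 libraries can give). Without dKO replicate 2 it was 0.0311, the same value as without Gm15459 and Gm10123. The processed pseudogenes under the limit held 0.0737 to 0.0772% of all counts in ctl and 0.0677 to 0.0755% in dKO, with overlap. Fold changes of the 370 tested centred on 0.02 on the log2 scale (8 higher and 11 lower at an unadjusted p under 0.05). This class was cut by the same mean, so it is not independent of the members. All processed pseudogenes together were at 0.274 to 0.287% in ctl and 0.296 to 0.338% in dKO, without overlap. Transcribed processed pseudogenes, a separate biotype, were at 0.0396 to 0.0436% in ctl and 0.0411 to 0.0447% in dKO, with overlap. The cytosolic ribosomal protein genes were at 1.08 to 1.21% in ctl and at 1.19 to 1.53% in dKO, with dKO replicate 3 inside the ctl range, and other kinds of pseudogene (unprocessed and unitary) overlapped between the groups.

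**Figure D1:**
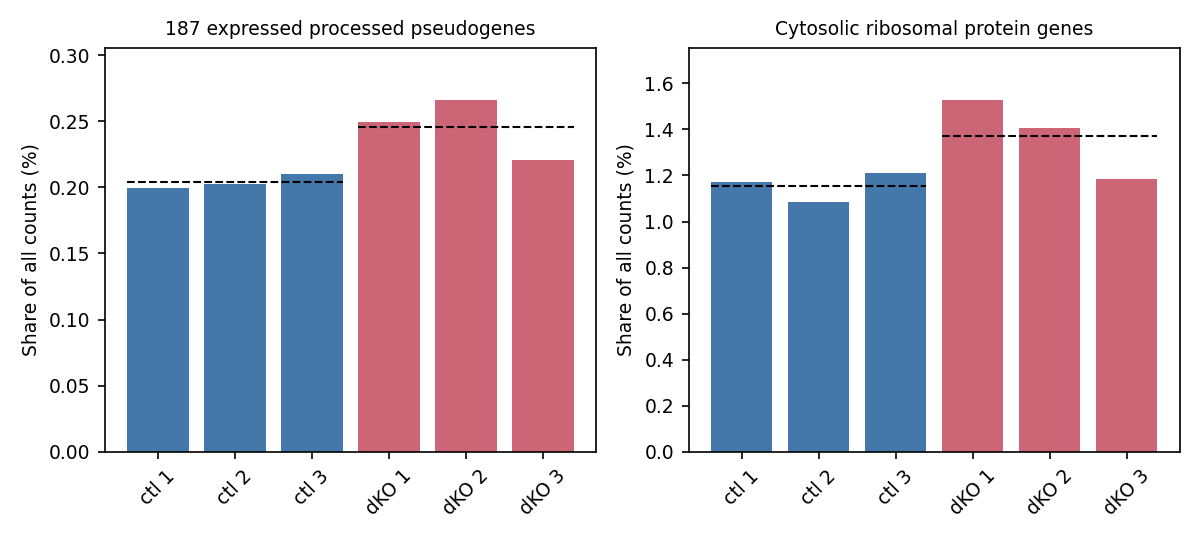
Share of all counts (%, linear axis from 0) in the 187 members, left, and in the cytosolic ribosomal protein genes, right. Bars are single libraries, ctl in blue and dKO in red, and dashed lines are group means (0.204 and 0.245% for the members); in both panels dKO replicates 1 and 2 are highest and dKO replicate 3 is nearest to ctl.

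All 187 members entered the fit over 17364 genes, and none had an edgeR adjusted p under 0.05, as against 1 gene of the table (0.00576%). DESeq2 called 6 members, all higher in dKO, and 291 genes in all (1.68%). At an unadjusted edgeR p under 0.05, 29 members were higher in dKO, where 6.27% of all genes tested were, and 3 were lower, where 5.27% were. These are 15.5 and 1.6% of the members. The normalized counts did not overlap with dKO above ctl in 37 members (19.8%, against 7.41% of all genes tested) and with dKO below ctl in 6 members (3.21%, against 9.55%). The median log2 fold change was 0.16 for the members and 0.01 for all genes tested, and 137 members were above 0. Protein-coding genes with a mean raw count of at least 50 had a median of 0.01 and long non-coding RNAs at that level one of −0.18. These counts moved with the libraries used. Without dKO replicate 1 there were 15 higher and 8 lower members at an unadjusted p under 0.05 and the median was 0.10, and without dKO replicate 2 there were 18 and 3 and the median was 0.17. Leaving out ctl replicates 1, 2 and 3 gave 17 and 4, 14 and 2, and 15 and 2, and leaving out dKO replicate 3 gave 41 and 2. In either direction together, 11.2% of the members and 13.3% of all genes tested had such a p without dKO replicate 2, and 9.09 and 9.17% without ctl replicate 3, whereas without dKO replicate 3 these were 23.0 and 11.2%. The members are not independent of each other, since several have the same closest gene.

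Grouped by the parent gene, the copies of cytosolic ribosomal protein genes were the largest of the named families, with 57 members and 35.5% of the members' counts. Of these 57, 49 had a log2 fold change above 0, 14 were higher at an unadjusted p under 0.05 and none was lower, with a median of 0.36. Over all genes tested, 6.27% were higher and 5.27% lower at this threshold, the background for each family. Gm10036, among the 14, passed the limit of 50 through 2 dKO libraries. Of the 82 ribosomal protein genes listed, 81 were tested. Their median was 0.25, with 12 higher and none lower at that threshold, on the same side as the copies. Only 39 of the listed genes were closest genes of the 57 copies. Rpl19-ps11, a copy of Rpl19 lying over an exon of another annotated gene, was at 127, 130 and 111 normalized counts in ctl and at 252, 251 and 134 in dKO. dKO replicates 1 and 2 stood well above ctl and dKO replicate 3 just above it (0.80 ± 0.26, edgeR adjusted p = 0.33). Rpl9-ps4, at 101 to 134 in ctl and 144 to 188 in dKO, and Rps16-ps2 (log2 fold change 0.39 ± 0.15) were also without overlap.

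Of the 10 copies of genes listed as translation factors, whose fold changes had a median of 0.24 on the log2 scale, 2 were higher at an unadjusted p under 0.05. These were Gm4366, a copy of the elongation factor gene Eef1g (0.62 ± 0.22), and Tpt1-ps3 (0.40 ± 0.16). Tpt1-ps3 is a copy of the gene of translationally controlled tumor protein, which was on the list but is not a classical translation factor. The 41 genes of that list, 9 of them closest genes of members, had a median of 0.08, with 2 higher and none lower. The 6 copies of hnRNP genes, which encode RNA-binding proteins of the nucleus, had a median of 0.10 and 1 higher (Gm6793, 0.33 ± 0.12). The 20 hnRNP genes listed, 3 of them closest genes of members, had a median of −0.02, with none higher and 1 lower. The 5 copies of HMG genes, which encode small chromatin proteins, had a median of 0.18 and 1 higher, Hmgn2-ps1. The 8 listed HMG genes tested had a median of 0.06, with none higher and 1 lower, and 2 HMG genes were closest genes of members. The 4 copies of glycolytic genes had a median of 0.11 and 1 lower, Gm7997. The 17 glycolytic genes listed, tested in 18 rows because Aldoa has 2, had a median of 0.26 with 7 higher and none lower. The 105 copies of other genes had a median of 0.09, with 11 higher and 2 lower, and all 6 members called by DESeq2 were among them. The strip plot by parent family shows that the changes above 1 on the log2 scale came, with 1 exception among the ribosomal copies, from this mixed class.

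**Figure D2:**
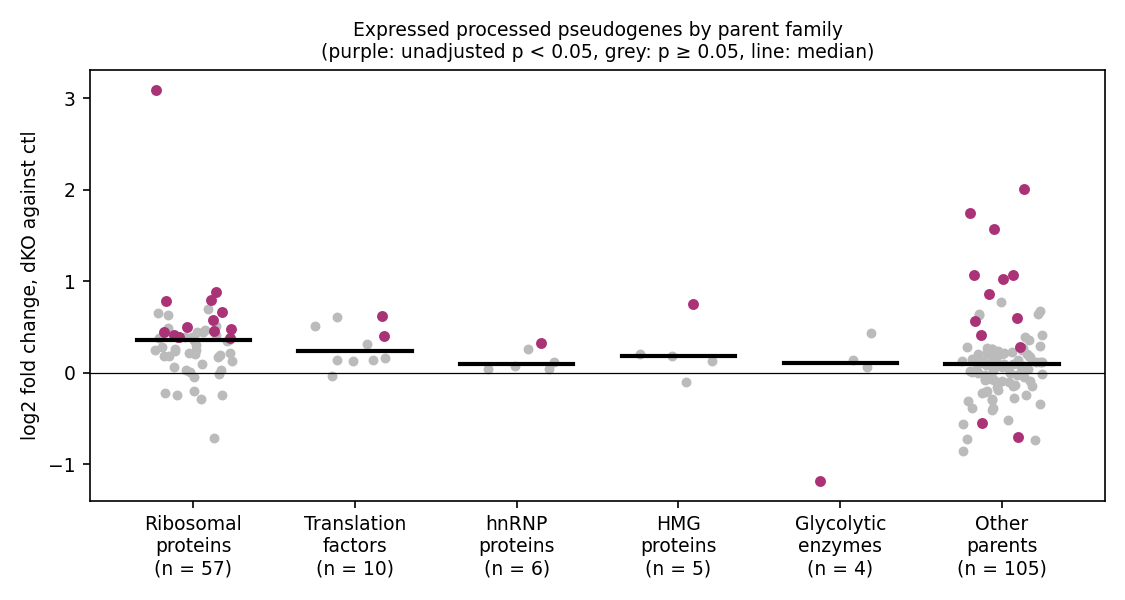
log2 fold change of dKO against ctl (edgeR) for each of the 187 members, split by the family of the closest coding gene. Each point is a member, purple at an unadjusted p under 0.05 and grey otherwise, and the bar is the family median, from 0.09 (other parents) to 0.36 (ribosomal proteins).

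The 6 members called by DESeq2 had parents that were lower in dKO or overlapped between the groups. Hdac1-ps (ENSMUSG00000061062), 1444 bases long and 99.4% identical to Hdac1, was at 61.2, 69.1 and 54.3 normalized counts in ctl and at 203, 176 and 243 in dKO. All dKO libraries were above 2 times the highest ctl library. The log2 fold change was 1.75 ± 0.21 (edgeR adjusted p = 0.0714, DESeq2 adjusted p = 2.54e-09), and it ranged from 1.61 to 1.86 over all alternatives. Hdac1 was at 993, 1080 and 976 in ctl and at 443, 554 and 502 in dKO, which is a change of −1.02 ± 0.12 (edgeR adjusted p = 0.0714, DESeq2 adjusted p = 1.09e-08). Copy and parent thus moved in opposite directions, and neither overlapped between the groups. The parent lost 517 normalized counts on average and the copy gained 146, so that their sum fell by 34.4%.

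Nudc-ps1 (ENSMUSG00000110331) was at 183, 196 and 186 normalized counts in ctl and at 496, 772 and 413 in dKO. The ctl libraries were nearly equal, and all dKO libraries were far above them (1.57 ± 0.23, edgeR adjusted p = 0.165, DESeq2 adjusted p = 1.33e-06). Its parent Nudc was at 1976 to 2144 in ctl and 1962 to 2421 in dKO, with overlap (0.12 ± 0.12). The log2 ratio of copy to parent was −3.46 ± 0.12 in ctl and −2.05 ± 0.35 in dKO (SD, n = 3; exact permutation test, p = 0.1).

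Gm3375 (ENSMUSG00000107470), a copy of Psmb5, was at 222, 244 and 205 normalized counts in ctl and at 469, 543 and 394 in dKO. All dKO libraries were above all ctl libraries (1.07 ± 0.16, edgeR adjusted p = 0.172, DESeq2 adjusted p = 2.29e-05). Psmb5 was at 509 to 521 in ctl and 348 to 437 in dKO (−0.39 ± 0.12), so that the copy outnumbered the parent in the dKO libraries only. Few windows of a read's length are identical between them (8.2%). Ncoa4-ps (ENSMUSG00000021908), a copy of the gene of the ferritin receptor NCOA4, was at 442, 468 and 454 in ctl and at 705, 612 and 701 in dKO. The groups were well apart (0.56 ± 0.11, edgeR adjusted p = 0.246, DESeq2 adjusted p = 0.0102). Ncoa4 went from 954 to 1156 in ctl to 786 to 840 in dKO, 269 fewer normalized counts on average beside 218 more in the copy, and their sum overlapped between the groups.

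Gm11223 (ENSMUSG00000046341), a copy of Stmn1, which encodes the microtubule-destabilizing protein stathmin, was at 158, 195 and 193 normalized counts in ctl and at 380, 354 and 261 in dKO (0.87 ± 0.19, edgeR adjusted p = 0.246, DESeq2 adjusted p = 0.0111). The groups did not overlap, with dKO replicate 3 nearest to ctl. Gm12663 (ENSMUSG00000101316), a copy of the phosphatase gene Ublcp1, was at 49.0, 48.8 and 54.3 in ctl and at 102, 78.0 and 141 in dKO (1.07 ± 0.28, edgeR adjusted p = 0.291, DESeq2 adjusted p = 0.0381). Again no dKO library reached down to ctl. Gm12663 averaged 49.7 raw counts in ctl and passed the limit of 50 through the dKO libraries, where it was high, so its difference is given as a description. Stmn1 and Ublcp1 had log2 fold changes of −0.43 ± 0.19 and −0.53 ± 0.16. Of the 6 members called by DESeq2, Gm12663 among them, 5 had a parent with a fold change below 0. Among all closest genes of members, 65 of the 154 tested were below 0.

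**Figure D3:**
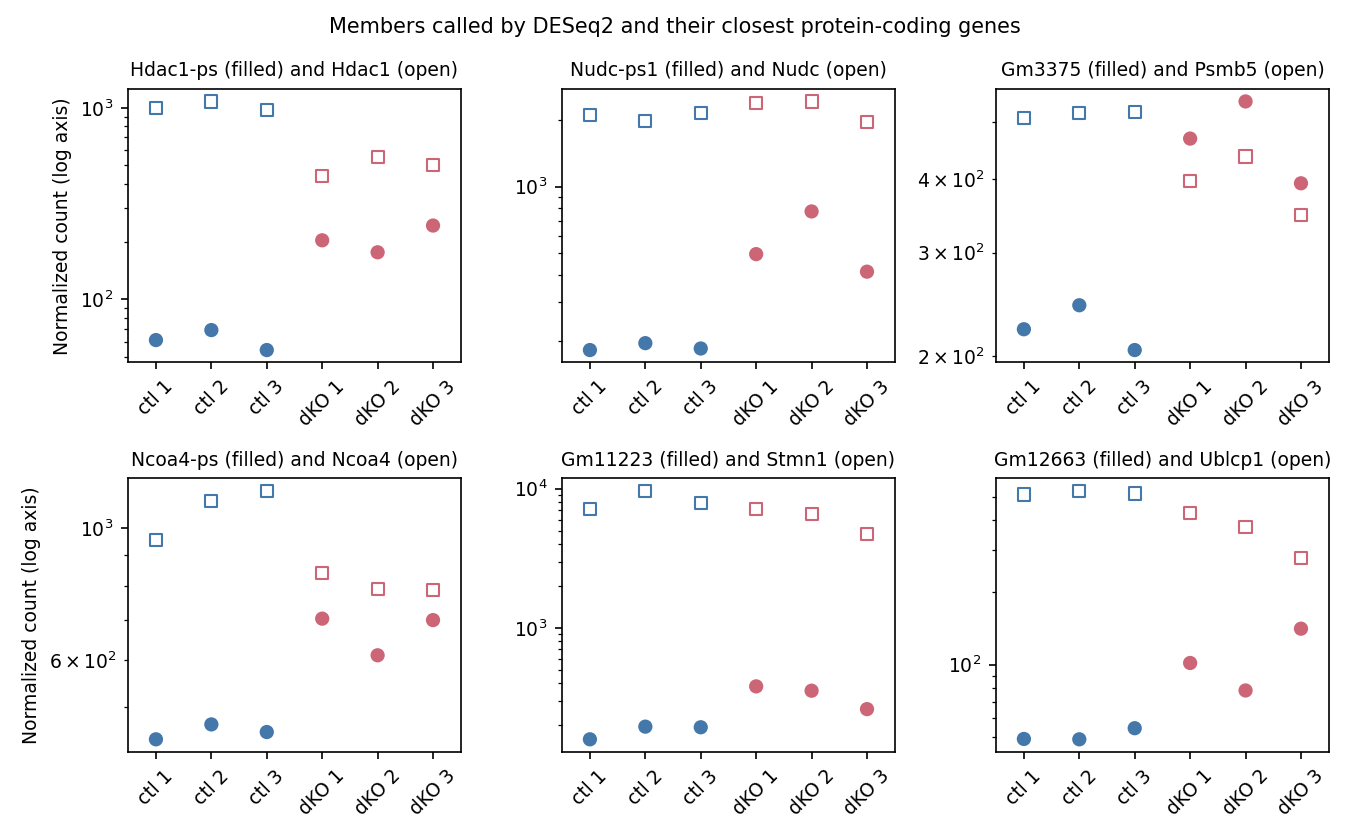
Normalized counts (log axis, its range set for each panel) of the 6 members called by DESeq2, filled circles, and of their closest coding genes, open squares, in each library (ctl blue, dKO red). In all 6 panels every filled red point is above every filled blue point, while the open squares of Hdac1, Psmb5, Ncoa4 and Ublcp1 are lower in dKO and those of Nudc and Stmn1 overlap or nearly so.

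Among all 184 members whose closest gene was also tested, the log2 fold changes of copy and parent had a Pearson r of −0.07 and a Spearman rho of 0.19 across pairs, given as a description, since both come from the same libraries. In 10 pairs both genes had an unadjusted p under 0.05. In 7 of these the copy was higher and the parent lower: Hdac1-ps, Gm3375, Gm11223, Ncoa4-ps, Gm12663, Gm8121 and Hmgn2-ps1. In 1, Gm7997 with Ldha, the copy was lower and the parent higher, and in 2 both were higher (Gm7367 with Ubald2 and Rps6-ps4 with Rps6). These pairs were picked out after their values were seen. Gm12663 and Gm7997 passed the limit of 50 only through the group where they were high, so their pairs are descriptions. Gm8121, a copy of the gene of the mitochondrial peptidase subunit IMMP1L, was at 39.4, 41.7 and 90.9 in ctl and 131, 112 and 106 in dKO, where ctl replicate 3 was close to the dKO libraries (1.02 ± 0.34). Hmgn2-ps1, identical to Hmgn2 over its whole length, was at 75.2, 59.5 and 62.7 in ctl and at 94.8, 142 and 96.3 in dKO, highest in dKO replicate 2 (0.75 ± 0.25, and 0.53 ± 0.25 without that library, where its unadjusted edgeR p was 0.066). Hmgn2 was at 1584 to 1850 in ctl and at 1079, 273 and 902 in dKO, lowest in that same library (−1.21, and −0.81 without it).

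**Figure D4:**
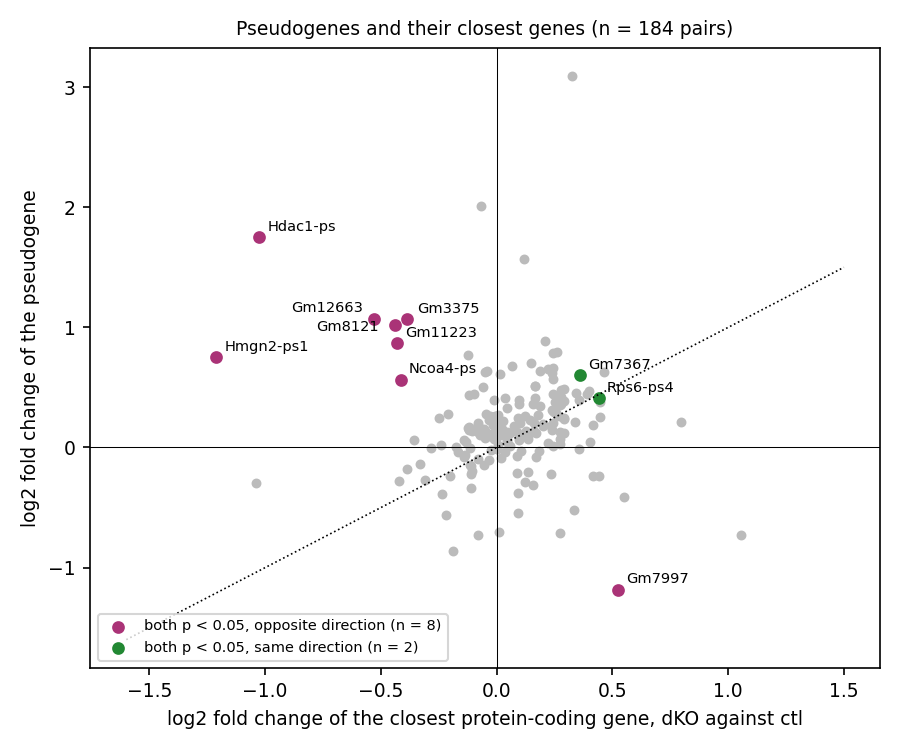
log2 fold change (dKO against ctl, edgeR) of each pseudogene on the vertical axis against that of its closest coding gene on the horizontal axis, for 184 pairs, with the dotted line marking equal change. The 8 pairs with both p under 0.05 and opposite directions are purple and the 2 with the same direction green, and 7 of the purple pairs sit at upper left, with the copy higher and the parent lower. Of the purple members, Gm12663 and Gm7997 passed the limit of 50 only through the group where they were high.

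Of the 50 members with a log2 fold change below 0, 6 had groups that did not overlap, and 3 of these had an unadjusted p under 0.05. Gm7997, a copy of the lactate dehydrogenase gene Ldha inside an intron of Gab1 on the opposite strand, was at 72.6, 90.5 and 77.3 normalized counts in ctl and at 25.4, 50.8 and 28.9 in dKO. The groups did not overlap (−1.18 ± 0.32, edgeR adjusted p = 0.296, DESeq2 adjusted p = 0.0506). It averaged 36.3 raw counts in dKO and passed the limit of 50 through ctl, so its difference is a description. It is 89.1% identical to Ldha, with no identical window of a read's length, while Ldha was at 1322 to 1794 in ctl and 2012 to 2487 in dKO (0.52 ± 0.14). Gm6206, a copy of the ubiquitin ligase gene Cop1 on the X chromosome, was at 185, 263 and 279 in ctl and at 155, 115 and 176 in dKO, close between ctl replicate 1 and dKO replicate 3 (−0.70 ± 0.23, edgeR adjusted p = 0.33). Gm5067, a copy of the ribosome biogenesis gene Rrs1, was at 208 to 285 in ctl and at 119 to 199 in dKO (−0.55 ± 0.23). Tcea1-ps1, Gm10154 and Gm8116 were also without overlap, with log2 fold changes of −0.31 ± 0.21, −0.28 ± 0.23 and −0.21 ± 0.23 and unadjusted edgeR p of 0.168, 0.243 and 0.377.

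Several members differed between libraries in steps that did not follow the groups. In 10 members (5.35%) the sorted log2 counts of the 6 libraries held a step of at least 1, as against 2.33% of all 13458 genes with a mean raw count of at least 50. For Hdac1-ps and Nudc-ps1 alone of these 10 the step separated the 3 dKO from the 3 ctl libraries. Gm15459, the copy of Hspa8, was at 388, 495 and 490 normalized counts in ctl, at 499 and 504 in dKO replicates 1 and 3, and at 4530 in dKO replicate 2. Hspa8 was at 17140 in that library and at 22020 to 26950 in the other 5, and the sum of the pair was 21670 there against 22400 to 27450. Gm15459 had a log2 fold change of 2.01 ± 0.79 that was 0.13 without dKO replicate 2. Gm10123, identical to the cyclophilin gene Ppia, was at 536 to 906 in 5 libraries and at 2533 in dKO replicate 2, where Ppia was lowest (4916 against 6380 to 7962). Its log2 fold change of 0.63 ± 0.49 became −0.31 without that library.

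Hspd1-ps3, a copy of the mitochondrial chaperonin gene Hspd1, was at 60.6 to 71.4 in ctl and at 30.3, 223 and 92.0 in dKO, again highest in dKO replicate 2. Its log2 fold change of 0.77 ± 0.58 became −0.15 ± 0.44 without that library. Gm10036, a copy of Rpl11, was at 21, 16.7 and 25.1 in ctl and at 278, 242 and 18.2 in dKO. dKO replicates 1 and 2 were thus more than 9 times above every other library and dKO replicate 3 was within the ctl range (3.09 ± 0.82, edgeR adjusted p = 0.292). Gm10036 passed the limit of 50 through these 2 libraries, so this too is a description. Rpl34-ps1 was at 67.4, 135 and 372 in ctl and at 135, 128 and 427 in dKO, high in replicate 3 of both groups, where Rpl34 was lowest (1534 and 1452 against 1755 to 2251). Gm10154, the other copy of Rpl34, was at 59.0 to 87.5 in all libraries and showed no such step.

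Gm10241, identical to Sumo2, which encodes a small ubiquitin-like modifier, was at 150, 306 and 326 in ctl and at 338, 31.8 and 102 in dKO. Sumo2 ran the other way, at 470, 180 and 156 in ctl and at 243, 808 and 631 in dKO, so that the copy exceeded the parent in 3 libraries and was below it in the other 3. Gm19178 was at 34.1, 86.9 and 81.5 in ctl and at 32.2, 39.0 and 39.6 in dKO, with ctl replicate 1 among the dKO values. With raw counts of 33, 43 and 37 in dKO, Gm19178 passed the limit of 50 through ctl libraries, so its difference is a description.

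**Figure D5:**
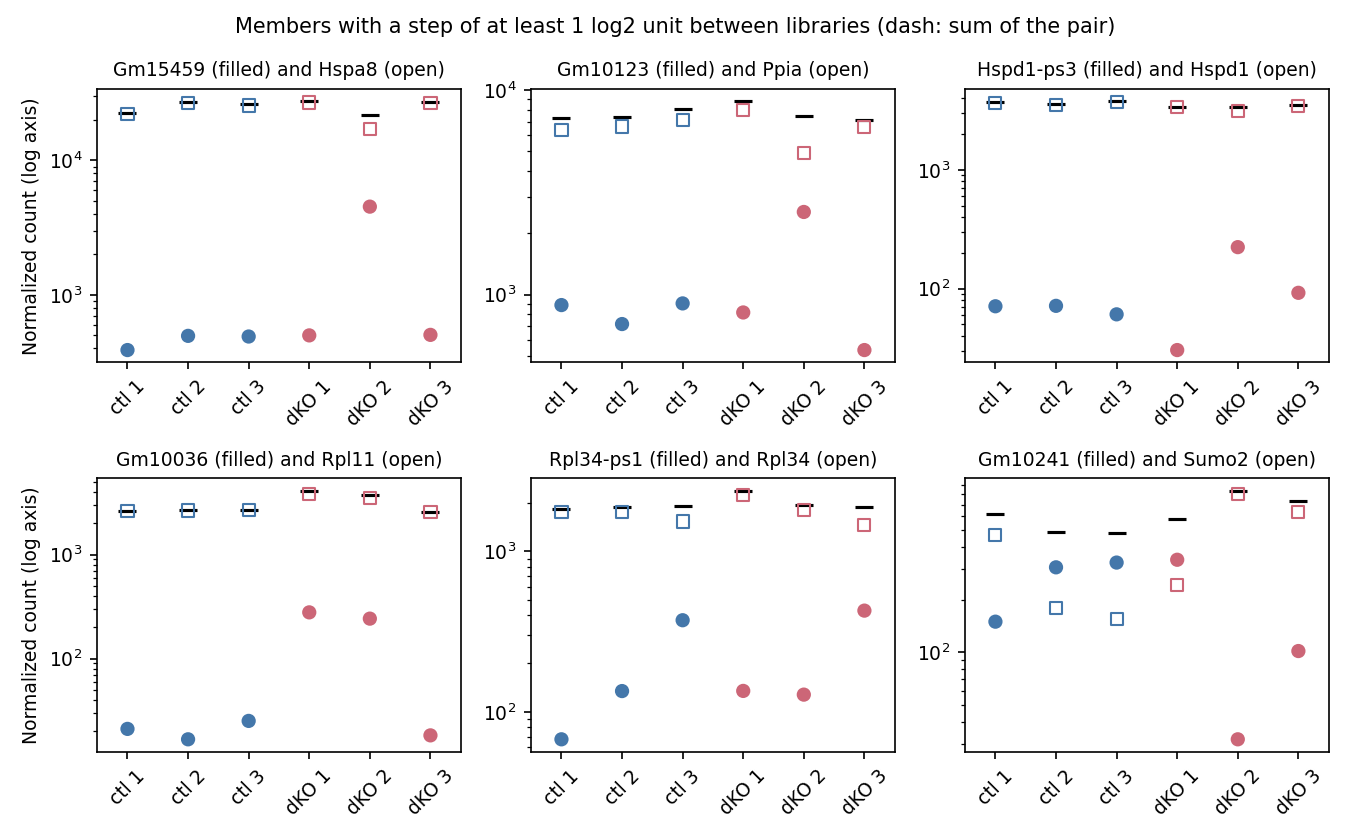
Normalized counts (log axis, its range set for each panel) of 6 members with a step of at least 1 log2 unit between libraries, filled circles, their closest coding genes, open squares, and the sum of each pair, black dashes (ctl blue, dKO red). Gm15459, Gm10123 and Hspd1-ps3 are highest in dKO replicate 2, Gm10036 in dKO replicates 1 and 2, and Rpl34-ps1 in replicate 3 of both groups, while Gm10241 and Sumo2 mirror each other.

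For the members named after a parent with -ps and a number, 42 in all, the counts were set against those of the parent. The parent row was in the table for 40 (37 distinct parents, 25 of the pairs ribosomal), and in each of them the parent by name was also the closest by sequence. Copies held a median of 8.12% of their parent's raw count, from 0.569% for Eef2-ps2 to 1080% for Rps10-ps2. The count ratio is not per length. Above 100% were Rps10-ps2, with a mean of 683 raw counts against 63.5 for Rps10, Rpl17-ps10 (1440) and Rpl17-ps3 (692) against 506 for Rpl17, and Rpl21-ps15 (803 against 750). At the other end, Rpsa-ps2, H3f3a-ps1 and Tubb4b-ps1 held 0.789, 1.1 and 1.39% of Rpsa, H3f3a and Tubb4b. Per length, Rps10-ps2 was at 64.1 ± 2.87 FPKM in ctl and 90.8 ± 27 in dKO, and Rps10 averaged 1.57. Of the windows of a read's length in Rps10-ps2, 70.0% are identical to Rps10. How reads that fit both were assigned is not given, so these levels do not show which gene was transcribed more. Across the 40 pairs the share of identical windows and the count ratio had a Spearman rho of 0.34, a description without a test.

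The log2 ratio of copy to parent, taken in each library, was higher in dKO in 31 pairs and lower in 9, with a median difference of 0.12. It did not overlap between the groups in 4 pairs, 10% of the 40, beside 15.7% of all 185 pairs of a member and its closest gene. With 3 against 3 libraries such a separation alone is not significant. Nudc-ps1, Hmgn2-ps1 and Hmgb1-ps2 had higher ratios in dKO by 1.40, 2.16 and 0.27 on the log2 scale, and Tcea1-ps1 a difference of −0.46 (for each, exact permutation test over 3 against 3 libraries, p = 0.1, the smallest possible). Without dKO replicate 2 the differences of Hmgn2-ps1 and Hmgb1-ps2 were 1.36 and 0.15. The median log2 fold change was 0.33 for the copies and 0.16 for their parents. In 29 pairs copy and parent were both above 0 and in 8 the copy was above and the parent below. At an unadjusted p under 0.05, 10 of the 40 copies were higher and none lower, where 6.27 and 5.27% of all genes tested were. Copies with values near 0 included Morf4l1-ps1 (0.02 ± 0.15), Rpl3-ps1 (0.04 ± 0.13) and Rab11b-ps2 (−0.10 ± 0.20), with ratio differences of 0.01, −0.18 and −0.10.

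Among the remaining named pairs, the ribosomal copies Rps12-ps3, Rpsa-ps10, Rpsa-ps7, Rpl31-ps8, Rpl30-ps10, Rps2-ps13, Rpl38-ps2, Rpl28-ps1, Rpl36a-ps2, Rps19-ps6, Rps27a-ps3, Rpl23a-ps3 and Rpl14-ps1 had log2 fold changes between 0.06 and 0.66, none at an unadjusted p under 0.05. Rpl7a-ps5 was at −0.20 ± 0.20. Of the copies of other genes, Csnk2a1-ps3, Rab7-ps1, Trmt112-ps2 and Btf3-ps1 were at 0.17 ± 0.23, 0.12 ± 0.22, 0.18 ± 0.33 and 0.61 ± 0.52. The last of these was highest in dKO replicate 2, at 192 normalized counts against 47.1 to 104 elsewhere, and was at −0.18 ± 0.40 without that library. The 17 members ending in -ps with no number included Hdac1-ps and Ncoa4-ps, and with these pairs added 7 ratios did not overlap, 6 higher and 1 lower.

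By sequence likeness, the 30 members identical to the closest gene in every window centred on a log2 fold change of 0.19, and 5 (16.7%) were higher and none lower at an unadjusted p under 0.05, close to the 15.5% of all members. The 22 with no identical window had one of −0.08, with 1 higher and 2 lower. The difference between these classes was not tested. By position, 17 of the 124 members between genes (13.7%) were higher and 2 lower, and of the 36 inside introns on the opposite strand 8 (22.2%) were higher and 1 lower. Of the 21 in introns on the same strand 1 (4.76%) was higher. Of the 6 over an exon of another gene 3 were higher and none lower, and 4 had dKO above ctl without overlap, where 7.41% of all genes tested did. Over all genes tested 6.27% were higher and 5.27% lower. Of the 12 members on the X chromosome 1 was higher and 1 lower. Within 10 Mb of Cacna1c by the deposited coordinates lay Rps27a-ps3 (3.26 Mb, 0.06 ± 0.23), Gm15519 (6.02 Mb, −0.00 ± 0.26) and Gm5884 (9.45 Mb, −0.14 ± 0.16), and within 10 Mb of Cacna1d lay Rpl23a-ps3 (3.68 Mb, 0.31 ± 0.19). None of these 4 had an unadjusted p under 0.05.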

How the data were processed

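The authors deposited 1 table for the OPC libraries with raw counts per gene, FPKM values, gene length and their own normalized values. Per the labels, libraries were made with the TruSeq RNA Library Prep Kit v2, which does not keep strand, with added PCR cycles. By the study's methods, paired reads of 150 bases were aligned with HISAT2 to GRCm38 and counted with featureCounts, while the submitters' processing notes name mm39. The setting for reads with several equally good places is not given in the sources used here, and it bears on every count of a pseudogene. The deposited FPKM values, which the authors scaled to gene length and depth, were used for levels only. The 6 columns of normalized counts per library, group means, fold changes and p-values of the authors were not used. Neuron libraries were not analysed here. Of the deposited starts of members, 183 differ from those of GENCODE M21 (GRCm38), so sequences and positions between genes were taken from M21 by gene ID. None came from a sequence of the mice themselves.

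Genes were kept at an average of 10 or more TMM-scaled counts and tested with edgeR 4.0.16 (quasi-likelihood test, Benjamini-Hochberg adjustment over 17364 genes, R 4.3.3), with DESeq2 1.42.0 as an alternative, and the script was tested on simulated data. Normalized counts are TMM-scaled counts. Errors of log2 fold changes are SE, and those of levels are SD over 3 libraries. p-values measure the spread between libraries of pooled mice only. Members were aligned to protein-coding transcripts with blastn 2.17.0, and the closest gene was taken as the parent. The pair ratio was log2 of (copy + 0.5) over (parent + 0.5) raw counts. Members, lists and tests were chosen with earlier results of these data known. Named genes were the 10 members with the highest mean, members with an adjusted p under 0.05 by either tool, up to 10 per direction with the smallest p and no overlap, all -ps pairs, Hdac1-ps, members within 10 Mb of a targeted gene and those at the limit of 50. Other genes named were chosen after their values were seen. No 2 libraries were copies of each other. Alternatives were RLE and protein-coding normalization, no filter, a replicate block, other limits of 25 and 100, members without overlapping genes, and leaving out each library.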

Additional observations from a re-analysis of the deposited data

How the results depend on the processing

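With DESeq2, 291 genes and 6 members were called, with no filter on low counts 87 and 4, and with the replicate number as a block 27 and 3. The block left 23 higher and 4 lower members (27) at an unadjusted p under 0.05 and a median of 0.15. Same-numbered libraries had correlations of −0.11, 0.15 and 0.11, so the numbers were not taken as pairs. Leaving out 1 library gave 1 to 199 genes called, 0 to 3 members called, 16 to 43 members at an unadjusted p under 0.05, 53 to 85 without overlap and a median of 0.0952 to 0.199 (0.0807 to 0.213 above that of all genes). Of the members, 8.56 to 23.0% had an unadjusted p under 0.05, against 6.34 to 13.3% of all genes tested, and 28.3 to 45.5% were without overlap in either direction, against 23.2 to 30.5%. Without dKO replicate 2 both shares were lower in the members than over all genes (11.2 against 13.3% and 29.4 against 30.5%). With 3 against 2 libraries, groups separate more readily, so these counts cannot be set beside the 43 from all libraries. It also gave share differences of 0.0311 to 0.0536 and 6 to 12 pairs without overlap of the ratio. Called genes peaked when dKO replicate 2 was left out, and members at an unadjusted p under 0.05 when dKO replicate 3 was. The 107 members at 100 or more gave 28 without overlap, and the 127 that overlap no other gene gave 21 at an unadjusted p under 0.05. Adding names in -ps gave 7 pairs. The causes were not tested, beyond the smaller number of libraries or members. Chosen after the data were seen, 168 members at 50 or more in each group gave 27 higher and 2 lower. Without dKO replicate 2, the called members were Hdac1-ps, Nudc-ps1 and Gm3375 (edgeR adjusted p = 0.0101, 0.0121 and 0.0384). Of 1155 fold changes of 105 named genes under the alternatives, 22 newly passed the adjusted threshold and none with an unadjusted p under 0.05 changed sign. Of the low members, 6 of the 80 under 100 counts had an unadjusted p under 0.05 (median SE 0.287), against 26 of the 107 above (0.198). Their median log2 fold changes were 0.11 and 0.19, so depth and size of change were not separated.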
